A study of Mus musculus with 12 samples.

Results

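The imprinted genes measured here are a set of 34 mouse genes. Each is known to be transcribed mainly from the copy inherited from 1 parent, in at least some tissues. The set holds every probe set on a pair of expression arrays whose only gene symbol in the platform annotation is one of these 34. By this rule 32 of the 34 genes had at least 1 probe set, among 18194 genes with such a probe set in all. The exceptions were H19 and Zrsr1, whose expression is not analysed here. Zrsr1 is counted only where promoter windows are described. Of the 32, 16 are known in mouse to be expressed from the paternal copy and 15 from the maternal copy, and for Gnas the expressed copy depends on the transcript. The RNA came from R1, an established mouse embryonic stem cell line, in 2 states. One state is labelled as differentiated (RNAs D1, D2 and D3), described as embryoid bodies (clumps of stem cells that start to form early cell types), and the other as undifferentiated (U1, U2 and U3), with an estimated purity of 95%. No genetic change or agent is named for either group, and the labels give both the same culture text, D-MEM with 10% serum in bacterial Petri dishes for 5 days, so the culture difference is known only from the group names. Each RNA was put on an array of type A (MOE430A) and an array of type B (MOE430B), with 3 RNAs in each state. The labels do not say whether the 3 were grown separately, and the p-values therefore rest on a spread between RNAs that may be only technical.

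Genomic imprinting is set in the germ line, when the DNA of egg and sperm is methylated at different control regions. After fertilisation these regions keep their marks, and each governs a neighbourhood of genes, some expressed from the paternal copy and some from the maternal copy. Many paternally expressed genes are known to promote fetal growth and many maternally expressed ones to restrain it, and the placenta and the developing mesoderm and endoderm are known sites of high expression. An array measures the total transcript and does not tell the copies apart. The parental allele is therefore used here as a known property of each gene and not as a measurement. Whether each gene was expressed mainly from that copy in these RNAs is not shown.

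Values are log2 of the MAS5 signal, with every array scaled to a common mean of 500 and signals under 32 set to 32, a floor of 5 on the log2 scale. Probe sets with a mean under 6 over the 6 arrays were not tested. On array A, 52 of 62 imprinted probe sets were tested, from 29 genes, and on array B 16 of 17, from 9 genes, which together cover 30 genes. Zim1 and Peg12 were not tested, and Peg12 lay at the floor on all 6 arrays. A probe set is said to have risen or fallen where its adjusted p was under 0.05 (limma, Benjamini-Hochberg over all probe sets of the array type).

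The RNA D1 correlated least with the others on array A (median r = 0.843) and U2 on array B (median r = 0.637). All differentiated RNAs on array A were processed on 1 fluidics station and all undifferentiated ones on another, and the effect of station and that of state cannot be told apart. U1 shared its array A lot with D1, D2 and D3, while U2 and U3 came from another lot. On array B, all of 1 lot, U1 shared its station with D1, D2 and D3, while U2 and U3 were on another station. The block is therefore the lot on array A and the station on array B. Values with the lot or station as a block rest on U1 alone as the undifferentiated RNA. For the imprinted genes of the set, they are given beside each call that they end and each median that they move. No such values are given for the markers, imprint factors, other imprinted genes and neighbouring genes. Whether the calls of those genes hold with this block is not shown.

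In the differentiated RNAs, Igf2, Peg3, Mest, Grb10 and Gnas rose and Phlda2 and Cd81 fell. These changes lay between 2.11-fold lower for Phlda2 and 10.1-fold higher for 1 of the Peg3 probe sets. The Peg3 value is made inexact by U3, which lay at the floor there. On array A, 9 of 52 imprinted probe sets passed the test, 7 of them higher and 2 lower, which is 17.3% of those tested. Over all 18025 probe sets tested on array A 2.87% passed, 1.31% higher and 1.56% lower. Groups that did not overlap were seen for 15 of the 52 imprinted probe sets with the differentiated RNAs higher, against 11.0% of all probe sets. With them lower there were 8, against 10.1%. Probe sets of 1 gene count separately here, among them 4 of Ndn and 3 of Peg3 that were higher and 2 of Slc38a4 that were lower. With 1 probe set a gene, over both array types, 8 of 30 imprinted genes were higher without overlap and 7 lower. Over all 16461 genes, 1508 were higher and 1523 lower in this way. On array B, 0 of 16 passed in limma's test, where 0.0197% of 20344 probe sets did (0.00983% rose and 0.00983% fell), and the lowest adjusted p of the 16 was 0.841. An unadjusted p under 0.05 was reached by 0 of the 16, against 5.24% of all probe sets on that array. Groups that did not overlap there were higher in the differentiated RNAs for 0 and lower for 2 of the imprinted probe sets (1 each of Mirg and Impact), against 5.96% and 5.32% of all.

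**Figure D1:**
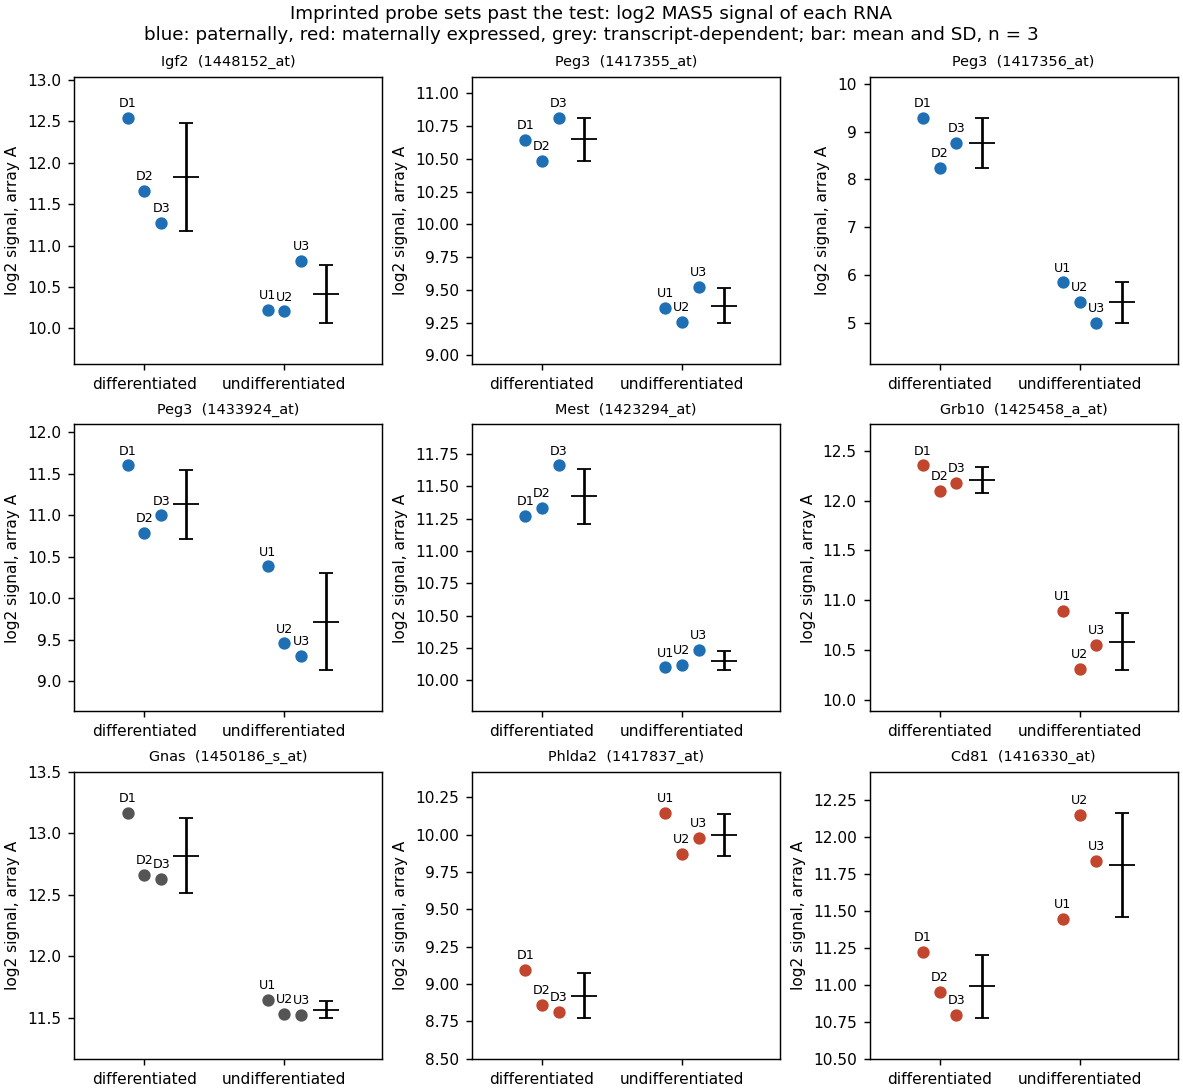
Log2 MAS5 signal (vertical axis, array A) of the 9 imprinted probe sets past the test, with the 3 differentiated RNAs left of the 3 undifferentiated RNAs and the mean and SD of each group beside its points. The panels of Igf2, Peg3, Mest, Grb10 and Gnas have all 3 differentiated RNAs above the undifferentiated ones, and those of Phlda2 and Cd81 have them below.

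With each gene represented by 1 probe set, 5 of the 30 tested genes rose, 2 fell and 23 did not pass, where 2.08% of 16461 genes passed in all (0.923% rose and 1.16% fell). The log2 differences of the 30 genes were spread around a median of 0.03, with 15 above 0 and 15 below, and the median of all genes was 0.01. Of the 15 paternally expressed genes tested, 3 rose, 0 fell and 12 did not pass, with a median log2 difference of 0.25. Of the 14 maternally expressed genes tested, 1 rose, 2 fell and 11 did not pass, with a median of -0.03. The difference between the allele groups was not tested. The mean level of the paternally expressed genes, set against the undifferentiated mean, was 0.25, 0.07 and 0.13 in D1, D2 and D3, against 0.15, -0.11 and -0.04 in U1, U2 and U3 on the log2 scale, so the groups overlapped. That of the maternally expressed genes was 0.32, 0.04 and 0.16 in D1, D2 and D3, against 0.01, 0.08 and -0.09 in U1, U2 and U3, and these overlapped too. The median of the paternally expressed genes was -0.08 without D1, 0.06 with the lot or station as a block and 0.127 with a floor of 64 or with no filter. That of the maternally expressed genes was -0.208 with the lot or station as a block.

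**Figure D2:**
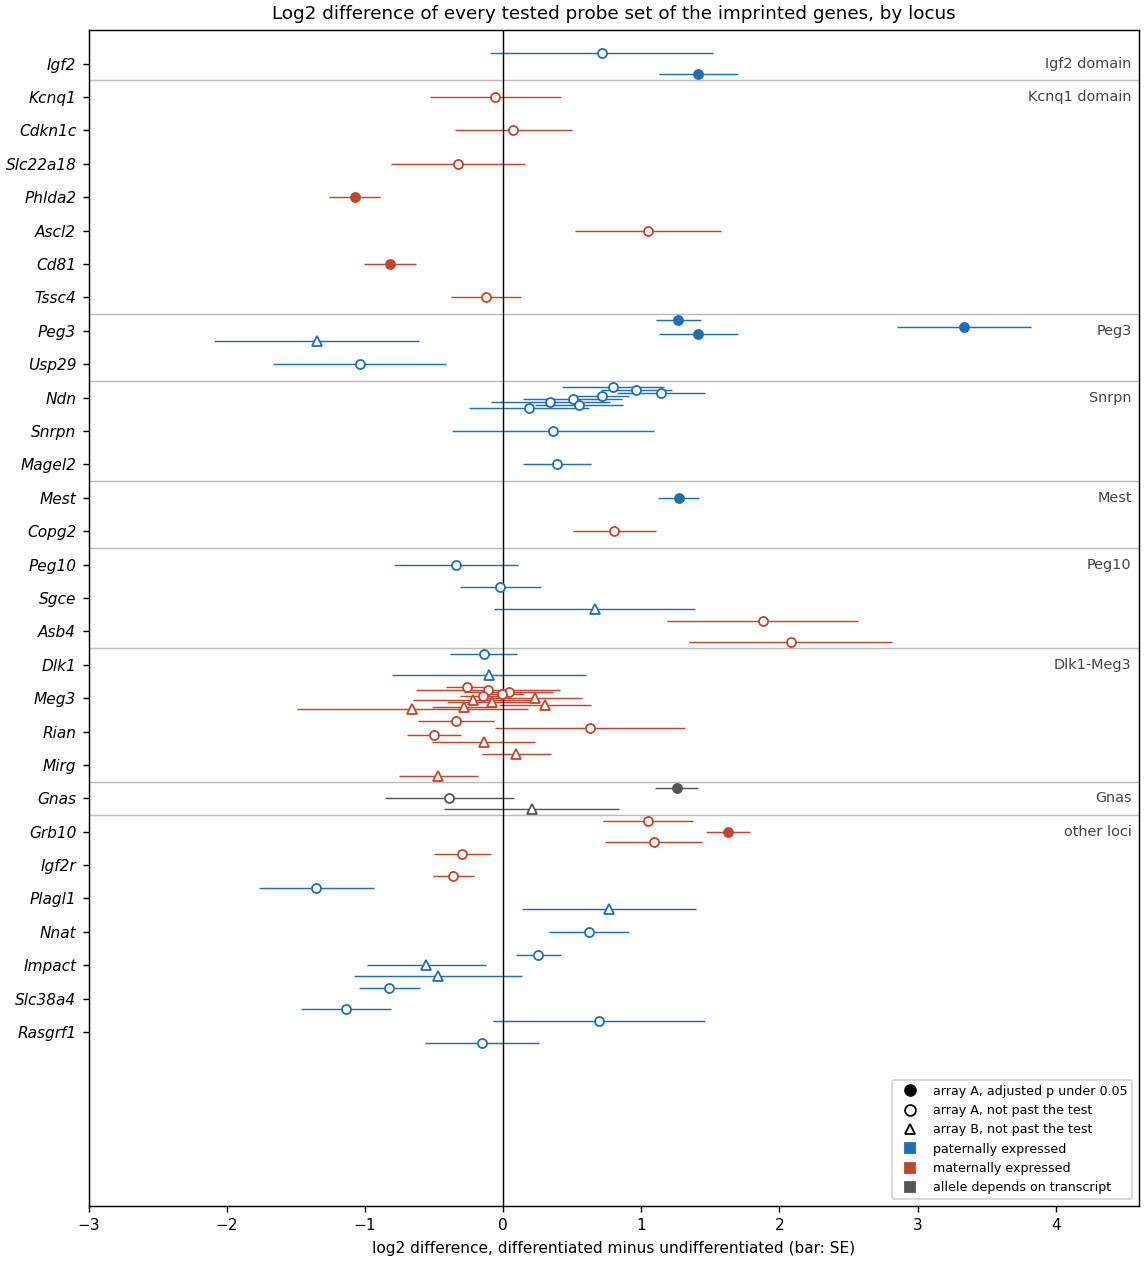
Log2 difference (horizontal axis, differentiated minus undifferentiated, bar for the SE) of every tested probe set of 30 imprinted genes, grouped by locus, with circles for array A, triangles for array B and filled points for those past the test. The 9 filled points belong to 7 genes, and 0 of the 19 points of the Dlk1-Meg3 locus are filled. Over all probe sets 2.87% passed on array A and 0.0197% on array B.

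Several lists of marker transcripts of cell types also differed between the groups, where 0.923% of all genes rose and 1.16% fell. Of 22 fibroblast markers tested, 10 fell and 0 rose, and their summed signal was 10832 to 12284 in the differentiated RNAs, against 26188 to 27731 in the undifferentiated ones. S100a4 and Bgn fell most within the list, with log2 differences of -3.83 and -3.63 (adjusted p = 0.00136 and 0.0243). Of 20 extraembryonic endoderm markers tested, 11 rose and 1 fell, with a summed signal of 11530 to 11787 in the differentiated RNAs and 4983 to 5618 in the undifferentiated ones, and Ttr (log2 difference 4.24) and Apoa1 (3.15) were among those that rose. Of 14 pluripotency markers, 4 fell (Klf4, Tdgf1, Lefty1 and Gdf3), 0 rose and 10 did not pass. The 10 include Pou5f1 (-0.27, adjusted p = 0.352), Nanog (-0.56, adjusted p = 0.43) and Sox2 (-0.03, adjusted p = 0.961). The summed signal was 23779 to 49182 in the differentiated RNAs and 66941 to 74506 in the undifferentiated ones. Dppa5a, the brightest of the list, counts most in this sum and did not pass either (-1.05, adjusted p = 0.096). Krt18 (1.23) rose among 9 trophoblast markers tested, 2 of 8 neural markers rose and 1 fell, and 0 of 9 mesoderm and muscle markers passed. None of the listed markers with a probe set lay at the floor on all 6 arrays with all its probe sets (0 in each list). These are bulk RNAs, so fewer cells of a type and less RNA per cell cannot be told apart, and the part of other cell types in the imprinted genes' differences was not tested.

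**Figure D3:**
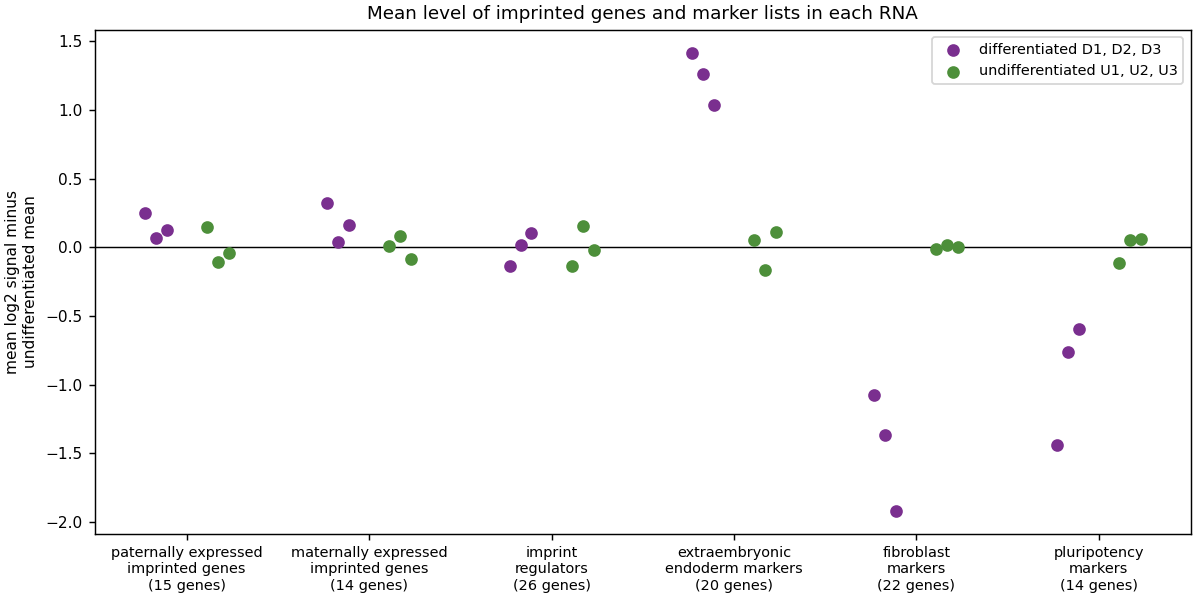
Mean log2 signal of each list minus its mean in the undifferentiated RNAs (vertical axis), with 1 point per RNA and the differentiated RNAs left of the undifferentiated ones. The points of both allele groups overlap between the states, while those of the extraembryonic endoderm, fibroblast and pluripotency markers do not.

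Igf2 encodes insulin-like growth factor 2, a fetal growth factor made from the paternal copy, at the distal end of chromosome 7. Its brighter probe set, 1448152_at, had a log2 signal of 12.54, 11.66 and 11.27 in D1, D2 and D3, against 10.22, 10.20 and 10.81 in U1, U2 and U3. All differentiated RNAs lay above all undifferentiated ones, and D1 was the highest. The difference was 1.41 ± 0.29 (SE, adjusted p = 0.0262), a 2.66-fold higher level. The call was lost with the lot as a block (1.60, adjusted p = 0.185), without D2 (1.49, adjusted p = 0.0544), without U1 (1.31, adjusted p = 0.0751) and without U2 (1.31, adjusted p = 0.112). The dim probe set 1415931_at, with D1 and U2 at the floor, overlapped between groups (0.71 ± 0.81, SE, adjusted p = 0.754).

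Grb10 and Igf2r, imprinted genes outside that locus whose products act on IGF2 or on IGF signalling, were also on the arrays. Grb10, on chromosome 11, encodes an adaptor that restrains insulin and IGF receptor signalling and is expressed from the maternal copy outside neurons. Its probe set 1425458_a_at had 12.36, 12.10 and 12.18 in D1, D2 and D3, against 10.89, 10.31 and 10.55 in U1, U2 and U3. The differentiated RNAs lay close together and more than 1 log2 unit above every undifferentiated RNA. With 1.63 ± 0.16 (SE, adjusted p = 0.000624), a 3.09-fold higher level, this was the lowest adjusted p of the set, and the call held under all 16 alternative settings run for it, from 1.32 to 1.78. The other Grb10 probe sets had differences of 1.05 (1425457_a_at, adjusted p = 0.128) and 1.09 (1430164_a_at, adjusted p = 0.143) and did not pass, though the groups of the second did not overlap. Igf2r, on chromosome 17, encodes the receptor that takes up and degrades IGF2 and is expressed from the maternal copy. Its probe set 1424112_at had 10.17, 10.05 and 10.29 in D1, D2 and D3, against 10.42, 10.62 and 10.57 in U1, U2 and U3. These groups did not overlap, but the difference of -0.36 ± 0.15 (SE, adjusted p = 0.261) did not pass, nor did that of 1424111_at (-0.30, adjusted p = 0.556).

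The promoter window of Grb10 with the most CpG for its base composition, of 2 in the RefSeq table (GRCm38.p6, 250 bases before to 50 after a transcript start), is shown because this gene had the firmest call. CpG dinucleotides, the sites of DNA methylation, numbered 45 in its 300 bases, an observed over expected ratio of 0.97. Capitals mark the hexamer TGCCGC on either strand, the letters that the imprint-protecting factor ZFP57 recognises when methylated.
Grb10, chr11:12037371-12037670, minus strand: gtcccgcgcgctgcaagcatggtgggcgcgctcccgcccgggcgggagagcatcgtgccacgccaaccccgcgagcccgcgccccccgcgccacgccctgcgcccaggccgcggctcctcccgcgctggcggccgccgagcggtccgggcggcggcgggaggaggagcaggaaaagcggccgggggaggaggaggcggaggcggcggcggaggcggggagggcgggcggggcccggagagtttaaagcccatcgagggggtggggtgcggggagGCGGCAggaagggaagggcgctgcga

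The Peg3 locus, at the proximal end of chromosome 7, holds Peg3, a paternally expressed zinc finger gene, Usp29, a paternally expressed ubiquitin protease gene, and Zim1, a maternally expressed zinc finger gene. Peg3 rose on all 3 of its array A probe sets. On 1417355_at it had 10.65, 10.49 and 10.81 in D1, D2 and D3, against 9.36, 9.26 and 9.52 in U1, U2 and U3 (1.27 ± 0.17, SE, adjusted p = 0.00312). On 1417356_at it had 9.29, 8.25 and 8.77 in the same differentiated RNAs, against 5.85, 5.44 and 5.00 in the undifferentiated ones, of which U3 lay at the floor (3.34 ± 0.49, SE, adjusted p = 0.00473). The groups stood clear of each other on both, and 1417356_at had the larger difference. On 1433924_at it had 11.60, 10.79 and 11.00 in D1, D2 and D3, against 10.39, 9.46 and 9.31 in U1, U2 and U3 (1.41 ± 0.29, SE, adjusted p = 0.0263). The last call is the least firm, since U1 stood above U2 and U3: it was lost with the lot as a block, where the difference was 0.745 (adjusted p = 0.45), and without D1 (1.18, adjusted p = 0.0693), D3 (1.48, adjusted p = 0.0736), U2 (1.28, adjusted p = 0.115) or U3 (1.21, adjusted p = 0.115). With the lot as a block 1417355_at (1.29, adjusted p = 0.0572) and 1417356_at (2.92, adjusted p = 0.144) did not pass either.

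The array B probe set 1447731_at of Peg3 lay the other way without passing (-1.35 ± 0.74, SE, adjusted p = 0.841), with 5.33 to 7.01 in the differentiated RNAs, against 6.38, 8.63 and 7.37 in U1, U2 and U3. The Peg3 probe sets thus disagreed in sign, though only those on array A passed, and the difference between probe sets was not tested. U2, the array that correlated least on array B, was the highest of these 6 values. Usp29 is transcribed in the opposite direction. Its tested probe set 1427551_at had 6.46, 5.08 and 7.17 in D1, D2 and D3, against 7.48, 6.85 and 7.50 in U1, U2 and U3, and these groups overlapped. The difference of -1.04 ± 0.63 (SE, adjusted p = 0.483) did not pass. Zim1 had a mean below 6, with values of 6.67, 5.06 and 5.00 in D1, D2 and D3, against 5.00, 6.14 and 6.90 in U1, U2 and U3.

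The window at the Peg3 start is shown because it also covers the start of Usp29, whose own window shares 263 of its 300 bases. Peg3 passed the test and Usp29 did not, and the difference between them was not tested. The Peg3 window held 13 CpG, a ratio of 0.46, and no TGCCGC on either strand, so it has no capitals.
Peg3, chr7:6730370-6730669, minus strand: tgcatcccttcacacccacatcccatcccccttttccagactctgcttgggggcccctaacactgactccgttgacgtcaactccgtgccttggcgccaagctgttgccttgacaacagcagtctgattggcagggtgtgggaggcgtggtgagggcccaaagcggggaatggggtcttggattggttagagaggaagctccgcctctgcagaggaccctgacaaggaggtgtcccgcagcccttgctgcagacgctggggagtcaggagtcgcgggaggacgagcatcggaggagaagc

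Mest, on chromosome 6, encodes an alpha/beta hydrolase named for its expression in mesoderm and is transcribed from the paternal copy. Its probe set 1423294_at had 11.27, 11.33 and 11.66 in D1, D2 and D3, against 10.10, 10.12 and 10.24 in U1, U2 and U3. The gap between the groups was larger than the spread within either. The difference was 1.27 ± 0.15 (SE, adjusted p = 0.00142), a 2.41-fold higher level, and it kept its call with the lot as a block (1.32, adjusted p = 0.0346). Copg2, which encodes a coatomer subunit, lies next to Mest and is expressed mainly from the maternal copy. It had 9.25, 9.44 and 8.87 in D1, D2 and D3, against 8.18, 8.97 and 8.00 in U1, U2 and U3. U2 lay above D3, and the difference of 0.80 ± 0.30 (SE, adjusted p = 0.211) did not pass.

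The Mest promoter window with the highest CpG ratio, of 3 in the table, is shown because it held TGCCGC at 2 places, in capitals, among 17 CpG. Of all 32851 promoter windows of this length 11.6% hold that hexamer on either strand, and of the 44 windows found for 28 of the imprinted genes 10 do (22.7%). A match is a description of the letters and not a binding site. The hexamer holds a CpG, and the imprinted windows had a higher median CpG ratio (0.60, against 0.38 for all). The 10 also count more than 1 window of Mest, and nothing is read from their share.
Mest, chr6:30737803-30738102, plus strand: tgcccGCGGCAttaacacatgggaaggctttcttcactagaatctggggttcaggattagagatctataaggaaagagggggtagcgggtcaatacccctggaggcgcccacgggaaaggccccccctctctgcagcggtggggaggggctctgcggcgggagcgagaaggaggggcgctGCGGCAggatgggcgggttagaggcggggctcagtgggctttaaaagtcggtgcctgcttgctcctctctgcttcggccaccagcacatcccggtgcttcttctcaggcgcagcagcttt

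The bodies of Mest and Igf2 each hold 1 microRNA hairpin in the RefSeq table, and their mature sequences are given because both host transcripts rose (chr6:30741314-30741336 and chr6:30741354-30741375 on the plus strand for the miR-335 arms, chr7:142654968-142654989 and chr7:142654932-142654952 on the minus strand for the miR-483 arms, 5p then 3p). The seed, bases 2 to 8, is in capitals, and the 4 seeds differ from each other. The levels of these microRNAs were not analysed here.
mmu-miR-335-5p: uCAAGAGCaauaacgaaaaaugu
mmu-miR-335-3p: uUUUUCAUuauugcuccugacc
mmu-miR-483-5p: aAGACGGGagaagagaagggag
mmu-miR-483-3p: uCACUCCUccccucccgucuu

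Gnas, on chromosome 2, encodes the alpha subunit of the stimulatory G protein together with longer and noncoding transcripts of other parental origin. Its probe set 1450186_s_at had 13.17, 12.66 and 12.63 in D1, D2 and D3, against 11.64, 11.53 and 11.52 in U1, U2 and U3. The undifferentiated RNAs were nearly equal, and D1 was the highest of all. The difference was 1.25 ± 0.15 (SE, adjusted p = 0.00204), a 2.39-fold higher level, and with the lot as a block it was 1.18 (adjusted p = 0.0673). A probe set with this suffix can bind more than 1 transcript, so the rise cannot be given to one Gnas product. Of the other Gnas probe sets, 1453413_at (-0.39, adjusted p = 0.768) and 1443375_at on array B (0.20, adjusted p = 0.957) did not pass, and the remaining ones were too dim to test.

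The domain next to Igf2 on distal chromosome 7, controlled from within Kcnq1, holds 7 maternally expressed members. Of these, 0 rose, Phlda2 and Cd81 fell and 5 did not pass, where 0.923% of all genes rose and 1.16% fell, and the median log2 difference was -0.13. Phlda2 encodes a small pleckstrin-homology protein known to restrain placental growth. It had 9.09, 8.86 and 8.82 in D1, D2 and D3, against 10.15, 9.87 and 9.98 in U1, U2 and U3. The groups stood clear of each other, with a difference of -1.08 ± 0.19 (SE, adjusted p = 0.0108), a 2.11-fold lower level. This call was lost with the lot as a block (-1.22, adjusted p = 0.093) and without U3 (-1.09, adjusted p = 0.0691), at about the same difference. Cd81, a broadly expressed tetraspanin whose imprinting is known from placenta, had 11.22, 10.95 and 10.80 in D1, D2 and D3, against 11.45, 12.15 and 11.84 in U1, U2 and U3. D1 and U1 were the nearest values of the groups, which did not overlap. The difference of -0.82 ± 0.19 (SE, adjusted p = 0.042) was -0.456 with the lot as a block (adjusted p = 0.576), and the call was also lost without D2 (-0.801, adjusted p = 0.106), D3 (-0.726, adjusted p = 0.144), U2 (-0.652, adjusted p = 0.18) or U3 (-0.808, adjusted p = 0.16).

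The other members of this domain did not pass. Cdkn1c, the cell cycle inhibitor p57, had 8.28, 8.18 and 8.33 in D1, D2 and D3, against 8.86, 7.14 and 8.57 in U1, U2 and U3, so U2 alone lay below the differentiated RNAs. Its difference of 0.07 (adjusted p = 0.961) was -0.451 without U2 (adjusted p = 0.662) and -0.597 with the lot as a block (adjusted p = 0.822). Ascl2, a transcription factor of trophoblast, had 8.78, 7.94 and 8.04 in D1, D2 and D3, against 6.42, 8.44 and 6.75 in U1, U2 and U3 on 1460514_s_at (1.05 ± 0.53, SE, adjusted p = 0.384). Here too U2 stood apart from U1 and U3. A dimmer Ascl2 probe set, 1432018_at, was below the limit for testing, with 7.52, 6.68 and 5.89 in D1, D2 and D3 and all 3 undifferentiated RNAs at the floor. The potassium channel gene Kcnq1 (-0.06, adjusted p = 0.973, and 0.151 with the lot as a block), the transporter gene Slc22a18 (-0.33, adjusted p = 0.82) and Tssc4 (-0.13, adjusted p = 0.872) did not pass either, and of these Slc22a18 had groups that did not overlap.

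The Phlda2 window is shown as that of a gene that fell beside the rising Igf2. It held 26 CpG, a ratio of 0.82, and no TGCCGC, and so has no capitals.
Phlda2, chr7:143502475-143502774, minus strand: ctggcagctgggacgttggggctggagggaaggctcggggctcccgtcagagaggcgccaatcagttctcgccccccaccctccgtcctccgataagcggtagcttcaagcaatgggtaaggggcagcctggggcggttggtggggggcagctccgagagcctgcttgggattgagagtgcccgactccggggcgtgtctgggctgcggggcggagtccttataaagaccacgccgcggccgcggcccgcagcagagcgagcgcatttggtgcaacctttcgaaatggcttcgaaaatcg

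Over the 28 imprinted genes found in the promoter table, the median CpG ratio of a window was 0.60, against 0.38 for all windows. The range within the set was from 0.0 for Rian to 0.97 for Grb10. Windows of paternally expressed genes had a median of 0.49 (24 windows) and those of maternally expressed genes 0.64 (16 windows), and windows of 1 gene share its locus, so these are descriptions. The motif GCCATNTT, a core bound by YY1, was found in 1 of the 44 windows, that of Slc38a4, where 6.05% of all windows hold it on either strand.

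The Snrpn locus on central chromosome 7 holds 4 paternally expressed members, Ndn, Magel2, Snrpn and Peg12, and the human counterparts of the first 3 lie in the Prader-Willi region. Ndn, which encodes necdin, a MAGE protein that restrains growth of neurons, had 8 probe sets on array A, and all 8 differences lay above 0, between 0.19 and 1.14, with 0 past the test. These probe sets read 1 gene in the same RNAs and are not separate evidence. On 1435382_at the values were 9.00, 8.92 and 9.29 in D1, D2 and D3, against 7.84, 8.22 and 8.25 in U1, U2 and U3 (0.96 ± 0.26, SE, adjusted p = 0.0758), and on 1437853_x_at 9.92, 9.66 and 9.49 in the differentiated RNAs, against 8.84, 9.09 and 9.00 in the undifferentiated ones (0.71 ± 0.20, SE, adjusted p = 0.0903). The groups did not overlap on 4 of the 8, where 11.0% of all probe sets on array A had groups that did not overlap with the differentiated RNAs higher. Magel2, another MAGE gene, had 9.39, 9.13 and 9.03 in D1, D2 and D3, against 8.97, 9.02 and 8.39 in U1, U2 and U3, a narrow gap (0.39, adjusted p = 0.505). Snrpn, a spliceosomal protein gene, had only 1 probe set by the rule, and its values overlapped widely (0.36 ± 0.73, SE, adjusted p = 0.875).

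At the Peg10 locus on proximal chromosome 6, Asb4, a maternally expressed gene of an ankyrin-repeat SOCS-box protein, had the largest differences of the set that did not pass. On 1433919_at it had 8.35, 5.97 and 7.48 in D1, D2 and D3, against 5.25, 5.00 and 5.30 in U1, U2 and U3 (2.08 ± 0.73, SE, adjusted p = 0.186). On 1423422_at it had 7.69, 6.94 and 6.25 in D1, D2 and D3, against 5.00, 5.00 and 5.25 in U1, U2 and U3 (1.88 ± 0.69, SE, adjusted p = 0.207). On both the undifferentiated RNAs lay at or near the floor and below all differentiated ones, while the differentiated RNAs were spread widely. Peg10, a retrotransposon-derived gene needed in the placenta, had 6.72, 7.47 and 6.70 in D1, D2 and D3, against 7.26, 7.49 and 7.16 in U1, U2 and U3 (-0.34, adjusted p = 0.794). Sgce, which encodes epsilon-sarcoglycan and whose gene boundary lies 102 bases from that of Peg10 in the RefSeq gene table, overlapped between groups on array A (-0.02 ± 0.29, SE, adjusted p = 0.982) and on array B (0.66 ± 0.73, SE, adjusted p = 0.877).

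The Dlk1-Meg3 locus on chromosome 12 had 4 members with 19 tested probe sets, of which 0 passed on either array. Over all probe sets 2.87% passed on array A and 0.0197% on array B, so the 0 is not read as a trait of the locus. Meg3, Rian and Mirg are maternally expressed noncoding RNAs, and the span from Meg3 to Mirg holds 57 microRNA hairpins in the RefSeq table. Meg3 had 11 probe sets, with differences between -0.66 and 0.30. On the brightest, 1439380_x_at, it had 12.19, 11.74 and 11.61 in D1, D2 and D3, against 11.84, 11.87 and 11.85 in U1, U2 and U3, where the undifferentiated values were nearly equal and lay within the range of the differentiated ones (-0.01 ± 0.15, SE, adjusted p = 0.988). Rian on 1452899_at had 9.18, 9.32 and 9.59 in D1, D2 and D3, against 10.08, 9.86 and 9.65 in U1, U2 and U3, a narrow gap (-0.50 ± 0.19, SE, adjusted p = 0.234). Its other probe sets overlapped between groups and disagreed in sign, with -0.34 (1427580_a_at, adjusted p = 0.623), 0.63 (1428055_at, adjusted p = 0.742) and, on array B, -0.14 (1440001_at, adjusted p = 0.951). Mirg was measured only on array B, with differences of 0.09 and -0.47 (adjusted p = 0.951 and 0.841). Dlk1, a paternally expressed gene of a Notch-ligand-like membrane protein, had 8.45, 8.60 and 8.67 in D1, D2 and D3, against 8.59, 8.93 and 8.62 in U1, U2 and U3 (-0.14 ± 0.24, SE, adjusted p = 0.845). The groups overlapped on array B as well (Dlk1 1442724_at, -0.11, adjusted p = 0.981).

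Of the remaining paternally expressed genes, Slc38a4, which encodes a transporter of neutral amino acids, came closest to a call. On 1448889_at it had 9.38, 10.82 and 10.87 in D1, D2 and D3, against 11.45, 11.48 and 11.56 in U1, U2 and U3 (-1.14 ± 0.32, SE, adjusted p = 0.0975). D1 was far below D2 and D3, and without D1 the difference was -0.65 and passed (adjusted p = 0.0209). On 1428111_at it had 8.90, 8.61 and 9.34 in D1, D2 and D3, against 9.83, 9.79 and 9.71 in U1, U2 and U3 (-0.83 ± 0.22, SE, adjusted p = 0.0768), again with no overlap. Plagl1, a zinc finger factor known to regulate other imprinted genes, had probe sets that disagreed in sign. On array A 1426208_x_at had 6.61, 6.94 and 7.10 in D1, D2 and D3, against 8.90, 7.93 and 7.88 in U1, U2 and U3 (-1.35 ± 0.42, SE, adjusted p = 0.127). On array B 1438588_at had 10.75, 10.33 and 10.57 in D1, D2 and D3, against 10.90, 8.05 and 10.40 in U1, U2 and U3, with U2 alone far below (0.77 ± 0.63, SE, adjusted p = 0.852).

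Nnat, the gene of the small membrane proteolipid neuronatin, had 9.63, 9.08 and 9.35 in D1, D2 and D3, against 9.30, 8.21 and 8.70 in U1, U2 and U3 (0.62, adjusted p = 0.338). Impact, a regulator of the kinase GCN2, overlapped between groups on array A (0.25, adjusted p = 0.512), and its array B probe sets had differences of -0.56 and -0.47 (adjusted p = 0.845 and 0.898). Rasgrf1, a Ras exchange factor of neurons, overlapped between groups on both tested probe sets (0.69 and -0.15, adjusted p = 0.746 and 0.911).

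The factors known to set, protect or read imprints were measured beside the imprinted genes. Of 26 tested, Dnmt3b, a de novo DNA methyltransferase, rose (1.23 ± 0.19, SE, adjusted p = 0.00574), 0 fell and 25 did not pass, with a list median of -0.01. The largest differences that did not pass were those of Dnmt3l, a cofactor of that enzyme (-1.35 ± 0.41, SE, adjusted p = 0.12), and Zfp57, whose protein binds methylated imprint control regions (-1.24 ± 0.76, SE, adjusted p = 0.493). Tet2, a methylcytosine oxidase on array B (-0.90, adjusted p = 0.841), and Uhrf1, a partner of the maintenance methyltransferase (0.76 ± 0.19, SE, adjusted p = 0.0596), followed. Dnmt1, the maintenance enzyme itself, had a difference of 0.26 (adjusted p = 0.404), and Trim28, the partner of ZFP57, one of -0.32 (adjusted p = 0.271). Of 29 other imprinted genes tested, 0 rose and 2 fell. Over all genes, as background to both lists, 0.923% rose and 1.16% fell. The 2 other imprinted genes that fell were Jade1 (-1.06 ± 0.20, SE, adjusted p = 0.0159) and Gab1 (-1.05 ± 0.23, SE, adjusted p = 0.0359), an adaptor of growth factor receptors.

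The genes next to the imprinted loci were compared as a description of the surroundings. Only members of the set were left out, so some neighbours are imprinted themselves. Airn, Kcnq1ot1, Ube3a and Blcap, for example, are also counted among the other imprinted genes above. The nearest 5 tested genes on each side of a locus, with those inside it, came to 161 genes, of which 3 rose and 2 fell, or 3.11%, with a median log2 difference of 0.05. Over all genes 2.08% passed and the median was 0.01, so nothing is read from the share among the neighbours. Those that rose were Mrpl23, a mitochondrial ribosomal protein gene near Igf2 (0.60 ± 0.14, SE, adjusted p = 0.0425), Map3k4, a kinase gene near Igf2r (1.60 ± 0.36, SE, adjusted p = 0.0411), and Ctsh, a cathepsin gene near Rasgrf1 (2.06 ± 0.29, SE, adjusted p = 0.00397). Those that fell were Col1a2, a collagen gene near Peg10 that is also in the fibroblast list (-1.57 ± 0.21, SE, adjusted p = 0.00313), and Slc38a2, an amino acid transporter gene next to Slc38a4 (-0.74 ± 0.14, SE, adjusted p = 0.0184).

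**Figure D4:**
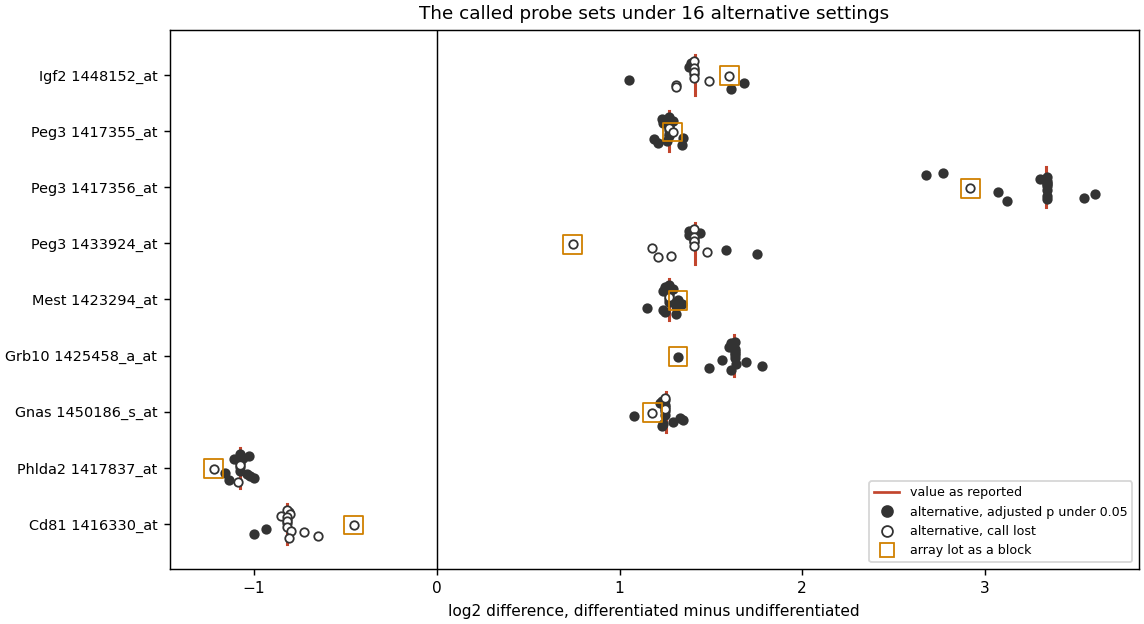
Log2 difference (horizontal axis, differentiated minus undifferentiated) of the 9 called imprinted probe sets as reported (line) and under 16 alternative settings (points, filled where the adjusted p stayed under 0.05), with the array lot as a block marked by a square. All 9 kept their direction in these settings, and Grb10 1425458_a_at kept its call in all 16.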

How the data were processed

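RNA from R1 embryonic stem cells was measured on 12 arrays, 6 of type A and 6 of type B. The deposited values are linear probe set intensities, the MAS5 signal per the submitters' processing notes, and the authors' scaling had already brought every array to the same 2% trimmed mean (tested on the files). Total read depth does not apply to arrays, and the number of arrays limits the precision. No detection calls were used. Signals were rescaled to a trimmed mean of 500, values under 32 were set to 32, log2 was taken, and probe sets with a mean under 6 were left out. Each array type was fitted separately with limma 3.58.1 in R 4.3.3 (lmFit and eBayes with an intensity trend, two-sided, Benjamini-Hochberg over all tested probe sets), after the fit was tested on simulated data. Control probe sets (64 on each array type) were left out. Gene names came from the platform annotation, and a probe set was given to a gene only where that was its single symbol. For counts of genes, each gene was represented by its brightest probe set on array A, or on array B where it had none tested on A. All tested probe sets of the imprinted genes are given by value or by range, with the neighbouring genes, other imprinted genes and imprint factors that passed the test, and marker lists are given by counts, sums and examples. Promoter and microRNA sequences are RefSeq's (GRCm38.p6). The members and lists were chosen with earlier results of these data known. The alternatives were other floors, scalings, filters and variance settings, blocks for lot or station and for RNA number, adjustment over both array types, and leaving out each RNA.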

Additional observations from a re-analysis of the deposited data

How the results depend on the processing

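All 9 calls kept their direction under the 16 alternatives. Grb10 kept its call in all 16, the Mest call and that of Peg3 1417356_at were each lost in 1, Peg3 1417355_at lost it in 2, Phlda2 and Gnas in 3 each, Igf2 in 8, Peg3 1433924_at in 9 and Cd81 in 11. Of the 52 tested imprinted probe sets on array A 9 passed, against 5 with a floor of 64, 2 without the intensity trend, 2 with the lot as a block and 6 to 10 without each RNA. On array B 0 of 16 passed under every alternative run. Over all probe sets of array A 518 passed, against 194 with a floor of 64, 307 with median centring, 194 with no filter, 97 without the trend, 106 with the lot block, 319 with adjustment over both array types and 181 to 497 without each RNA, the lowest without U3. Over all of array B 4 passed, against 0 with a floor of 64, 2 with log2(signal + 32), 2 with median centring, 1 with no filter, 0 without the trend, 0 with the station block, 10 with adjustment over both types and 0 to 2 without each RNA. The paternal median of 0.255 was 0.127 with a floor of 64, 0.127 with no filter, 0.0595 with the lot block and -0.0809 to 0.249 without each RNA, the lowest without D1. The maternal median of -0.0321 was -0.208 with the lot block, -0.0989 as a mean over probe sets and -0.113 to 0.0439 without each RNA.

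Signs turned only among genes that did not pass. With the lot or station block these were Kcnq1 (0.151), Cdkn1c (-0.597), Meg3 (0.00613) and Mirg (-0.229), and with quantile normalisation Meg3 (0.00153). Without each RNA the differences ran from -0.218 to 0.208 for Kcnq1, -0.451 to 0.409 for Cdkn1c, -0.285 to 0.0158 for Tssc4, -0.246 to 1.02 for Snrpn, -0.274 to 0.201 for Sgce, -0.18 to 0.11 for Meg3, -0.0294 to 0.256 for Mirg and -0.499 to 0.135 for Rasgrf1. The cause was not tested.

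The RNA numbers did not meet the test for pairing. Same-numbered deviations correlated at 0.157, 0.0123 and 0.0725 on array A, where those of different numbers reached 0.0896. On array B the same-numbered ones correlated at 0.183, 0.0966 and 0.118, where those of different numbers reached 0.0333. On array B every RNA correlated best with its own number, which is a hint from the data and not from the design, and on array A not every one did. With the replicate number as a block 10 imprinted probe sets passed on array A, the 9 and Slc38a4 1448889_at (-1.14, adjusted p = 0.0305), with 724 over all of array A and 1 over all of array B.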
